A study of Mus musculus with 9 samples.

Results

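The genes described here are 38 endothelial cell genes, chosen as a list of symbols, and all 38 were found among the 27179 Entrez gene rows of the deposited matrix. They were followed in RNA from sorted cells of the fibrous tissue that formed around a tibial implant in mice, 2 weeks after implantation. The sorted cells were negative for lineage markers, which the labels do not name one by one, and positive for tdTomato, a red fluorescent reporter switched on by tamoxifen in cells with Lepr-driven Cre. All groups therefore carried Lepr-CreERT and Tdtomato and were given tamoxifen. The 4 control libraries (Lepr-CreERT;Tdtomato, Cre only) were without the floxed Grem1 alleles, and the 5 conditional knockout (cKO) libraries (Lepr-CreERT;Tdtomato;Grem1fl/fl) carried loxP-flanked Grem1 alleles. Recombination is limited to cells in which Lepr drove Cre at the time of tamoxifen, and their descendants, so other cells of the tissue would keep Grem1. The labels give neither the age of the mice nor whether each library is a different animal, and the p-values therefore speak only to variation among the libraries sequenced.

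Endothelial cells line blood and lymphatic vessels. They are held together by junction proteins such as VE-cadherin, respond to vascular endothelial growth factor (VEGF) and angiopoietins through receptor tyrosine kinases, and keep their identity through ETS and SOX transcription factors. In bone marrow the LEPR-lineage stromal cells lie around sinusoids, the wide thin-walled marrow vessels, but are not endothelial themselves. In bulk RNA, fewer endothelial cells and less endothelial RNA per cell cannot be told apart.

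Grem1 was lower in every cKO library (46.4 to 133 normalized counts) than in every control (356 to 736). Recovered reads numbered 43.5 to 53.4 M (megareads) in the controls and cKO replicate 5, and 76.3 to 87.2 M in cKO replicates 1 to 4, so depth and genotype largely coincide. Lepr itself had 18730.3, 5379.9, 40594 and 935 in control replicates 1 to 4. In the cKO libraries, from replicate 1 to 5, it had 15785, 13109.8, 9822, 13845 and 1347. Xist, expressed from the inactive X chromosome of female cells, was present in control replicates 1 and 3 and cKO replicate 2 and had no read in the other 6 libraries. No animal sex is given in the labels.

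The DNA just upstream of several of these genes holds GGAAG, a longer form of the core GGAA recognized by ETS factors, a family that includes the members Erg and Fli1. RefSeq promoter windows were found for 20 of the 38 genes. Over the 250 bases before the start site, GGAAG or its reverse complement CTTCC occurred in 20 of the 24 windows of those 20 genes (83.3%) and in 64.1% of all 32851 windows of that length. The 4 windows shown belong to Tie1 and Tek, which encode sister receptors, to the VEGF receptor gene Flt1 and to the tight junction gene Cldn5. They were chosen with the levels of these genes known, so their motif counts are examples only. The sequences are from assembly GRCm38.p6, run 5′ to 3′ on the strand of the gene, and have the motif in capitals.
Tie1 (chr4:118489850-118490099, minus strand): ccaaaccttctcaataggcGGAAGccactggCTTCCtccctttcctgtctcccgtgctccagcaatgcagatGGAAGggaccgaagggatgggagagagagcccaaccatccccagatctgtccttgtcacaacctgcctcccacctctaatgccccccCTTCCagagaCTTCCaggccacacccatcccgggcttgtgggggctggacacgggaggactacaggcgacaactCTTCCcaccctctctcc
Tek (chr4:94739039-94739288, plus strand): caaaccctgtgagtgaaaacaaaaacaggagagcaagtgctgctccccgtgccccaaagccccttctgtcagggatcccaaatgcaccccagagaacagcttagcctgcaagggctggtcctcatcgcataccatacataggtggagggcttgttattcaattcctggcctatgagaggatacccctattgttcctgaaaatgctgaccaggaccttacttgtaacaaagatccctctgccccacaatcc
Flt1 (chr5:147726012-147726261, minus strand): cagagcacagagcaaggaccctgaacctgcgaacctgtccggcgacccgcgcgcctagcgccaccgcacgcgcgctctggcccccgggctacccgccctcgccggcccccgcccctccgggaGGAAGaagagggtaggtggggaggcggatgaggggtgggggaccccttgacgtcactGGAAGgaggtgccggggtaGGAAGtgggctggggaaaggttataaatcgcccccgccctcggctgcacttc
Cldn5 (chr16:18776597-18776846, plus strand): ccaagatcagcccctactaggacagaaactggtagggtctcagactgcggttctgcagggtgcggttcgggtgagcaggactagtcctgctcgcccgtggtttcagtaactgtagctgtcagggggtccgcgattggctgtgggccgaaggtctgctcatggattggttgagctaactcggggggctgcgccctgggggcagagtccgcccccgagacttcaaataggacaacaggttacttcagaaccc
The motif GGAAG or CTTCC occurred 6 times upstream of Tie1, 3 times upstream of Flt1 and not at all upstream of Tek or Cldn5. The shorter core was not counted, and the Tek window holds its reverse complement TTCC. A match describes these letters only, and a window without one says nothing about the factors.

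Most of the endothelial genes were high in control replicates 1 and 3 and low in the other 7 libraries. Together the 38 genes made up 0.706% and 0.880% of normalized counts in control replicates 1 and 3, and 0.0379% and 0.0492% in control replicates 2 and 4. In cKO replicates 1 to 5 the share was 0.0594%, 0.0335%, 0.0409%, 0.0518% and 0.0433%. The summed share in the cKO libraries lay far below the high controls and on both sides of the low ones. Tek and Ramp2 made up 36.5%, 30.7%, 51.6%, 37.3% and 13.4% of that sum in cKO replicates 1 to 5, and 4.61% to 6.87% in the controls. Without Tek and Ramp2 the share was 0.0353% and 0.0465% in control replicates 2 and 4, 0.0377% and 0.0375% in cKO replicates 1 and 5, and 0.0198% to 0.0325% in the other cKO libraries. The median level of the 38 genes, 423 and 479 normalized counts in control replicates 2 and 4, was lower in every cKO library (388, 110, 179, 229 and 399). The division among the controls came from these counts and from no label, so the controls are described library by library and no test was made between them. Xist, given above, was present in the same 2 controls and absent from the other 2, and it was also present in cKO replicate 2, where the endothelial share was lowest. Its part in the division was not tested.

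**Figure D1:**
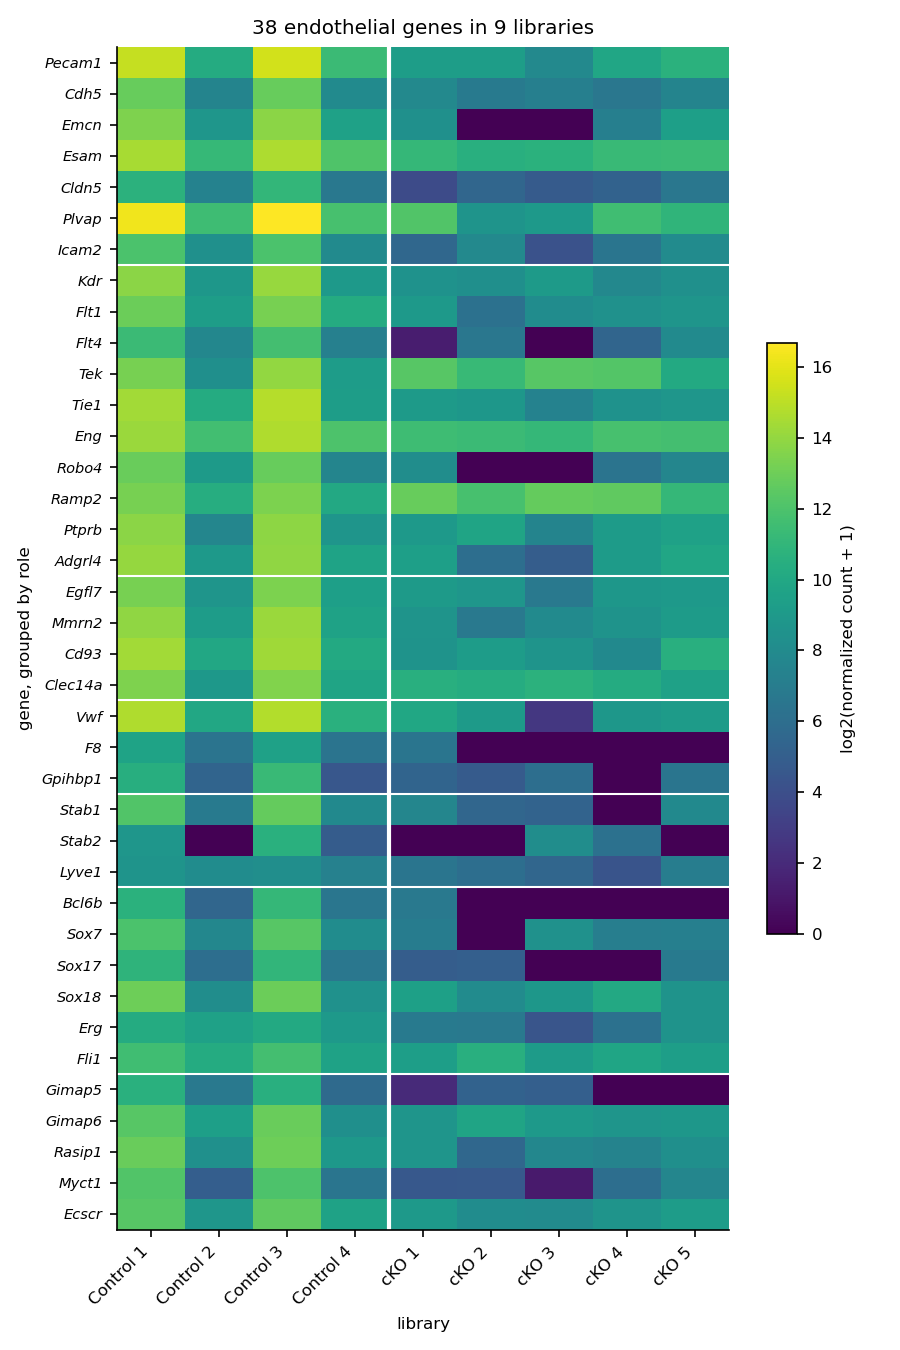
Heat map of log2(normalized count + 1) for the 38 genes (rows, grouped by role) in 4 control and 5 cKO libraries (columns), with white lines between groups. Control replicates 1 and 3 are brighter than all other columns for most genes, and the darkest cells are values of 0 in cKO libraries and, for Stab2, control replicate 2.

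Control replicates 1 and 3 were the 2 highest controls for all 38 genes, an order found for 23.6% of the 15832 genes tested. For 35 of the 38 the second-ranked control stood at least 4-fold above the third-ranked one with that order, against 2.34% of all genes. The median distance between those ranks was 3.91 on the log2 scale, and 0.20 over all genes. The standard deviation (SD) of log2(normalized count + 1) over the 4 controls had a median of 2.54 for the 38 genes and 0.35 over all genes tested. For 29 of the 38 it lay above the 90th percentile of all genes (10% of genes by construction). Over the 5 cKO libraries the median SD was 1.08 for the list and 0.46 over all genes. The widest gap belonged to Myct1, a target of the MYC oncoprotein found in endothelium, whose second-ranked control was 45.6 times the next.

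**Figure D2:**
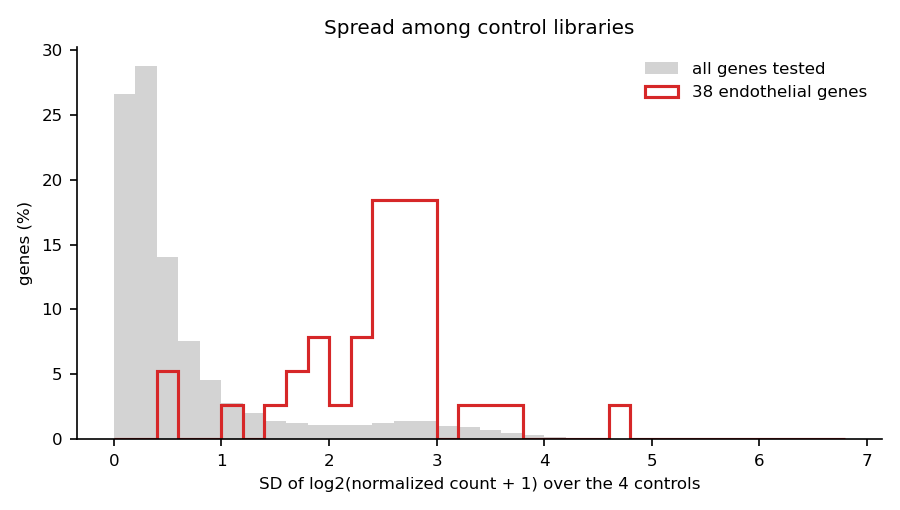
Histogram of the SD of log2(normalized count + 1) over the 4 controls, as a percentage of genes, for all 15832 genes tested (grey) and for the 38 endothelial genes (red outline). Of the endothelial genes 29 lie above 2.00, the 90th percentile of all genes, and Erg and Lyve1 lie with the bulk of all genes.

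Erg, Lyve1 and Fli1 were the 3 members without the wide gap. Erg, an ETS factor that maintains endothelial identity, had 1234, 757, 1110.0 and 511 in control replicates 1 to 4. Lyve1, a hyaluronan receptor of lymphatic endothelium and some macrophages, had 395, 270.4, 301 and 161. Fli1, an ETS factor of endothelium and blood cells, had 3060.2, 1221, 3323 and 767. Their highest control was 2.41, 2.46 and 4.33 times the lowest, against 38.1 times for Pecam1 and 40.2 times for Cdh5. In these libraries Erg and Lyve1 thus varied less among controls than the rest of the list. Their SD on the log2 scale, 0.58 and 0.54, was still above the median of 0.35 over all genes tested.

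Between genotypes, 6 of the 38 genes fell in the cKO libraries and none rose: Erg, F8, Bcl6b, Gimap5, Flt1 and Cldn5 (limma, Benjamini-Hochberg adjusted p under 0.05 over all genes tested). That is 15.8% of the list, where 2.87% of all genes tested were called lower and 4.61% higher. The fitted change was below 0 for 36 of 38 genes, against 50.3% of all genes, with a median log2 fold change of -3.37 against -0.0039. An unadjusted p under 0.05 was reached by 30 of the 38, all lower, and by 26.9% of all genes. Every control lay above every cKO library for 8 of the 38 (21.1%, background 4.6%): Flt1, Tie1, Vwf, Cldn5, Gimap5, Erg, Lyve1 and Mmrn2. All fold changes are on the log2(normalized count + 1) scale and are cKO minus control. The calls changed with the libraries used. Without control replicate 1, control replicate 3 or cKO replicate 4, 0 of the 38 passed in limma. An unadjusted p under 0.05 was reached by 20, 20 and 30 of them, and 0.777%, 1.09% and 0.758% of all genes were called lower. Without control replicates 1 and 3 together 0 passed as well (0.366% of all genes were called lower). The median was then -1.21, and 3 of the 38 were lower at an unadjusted p under 0.05. Leaving out control replicate 4 or cKO replicate 1 left 2 of the 38 (0.840% and 0.872% of all genes were called lower). Leaving out cKO replicate 2 or 3 left 1 (1.55% and 1.26%), and leaving out control replicate 2 left 4 (0.846%). Without cKO replicate 5, which had the shallowest library, 15 passed, where 10.1% of all genes were called lower. Between cKO replicate 5 and the 4 controls, the only libraries of like depth, 0 passed (0.114% of all genes were called lower), 3 had an unadjusted p under 0.05, and the median was -2.02. With depth class as a covariate 0 passed (0.385% of all genes, 3 of the 38 at an unadjusted p under 0.05). Its fold changes are those of cKO replicate 5 against the 4 controls again, so it is no separate check. With Xist as a covariate 3 passed (2.77%), and with library quality weights 10 (11.5%). The fit with cKO replicate 5 alone assumes that a lone cKO library varies like the controls.

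Count-based tests called more members. On recovered reads edgeR's quasi-likelihood test called 11 of the 38 lower (1.71% of all genes), 2 of them among the 6 above, namely Flt1 and Cldn5. DESeq2 called 30 lower (6.35% of all genes), and in the table deposited by the authors (the authors' deposited table) a lower level was called for 31 of the 38 at an adjusted p under 0.05, where 6.63% of all its genes with an adjusted p were. Bcl6b and F8 were called neither by edgeR nor by DESeq2, nor in the authors' deposited table (adjusted p = 0.159 and 0.228 there). These tests compare means of counts, to which control replicates 1 and 3 contribute most. Whether that accounts for the larger number of members called was not tested. For Pecam1 the ratio of control to cKO means was 28.3, and on the log scale the difference was 13.2-fold.

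**Figure D3:**
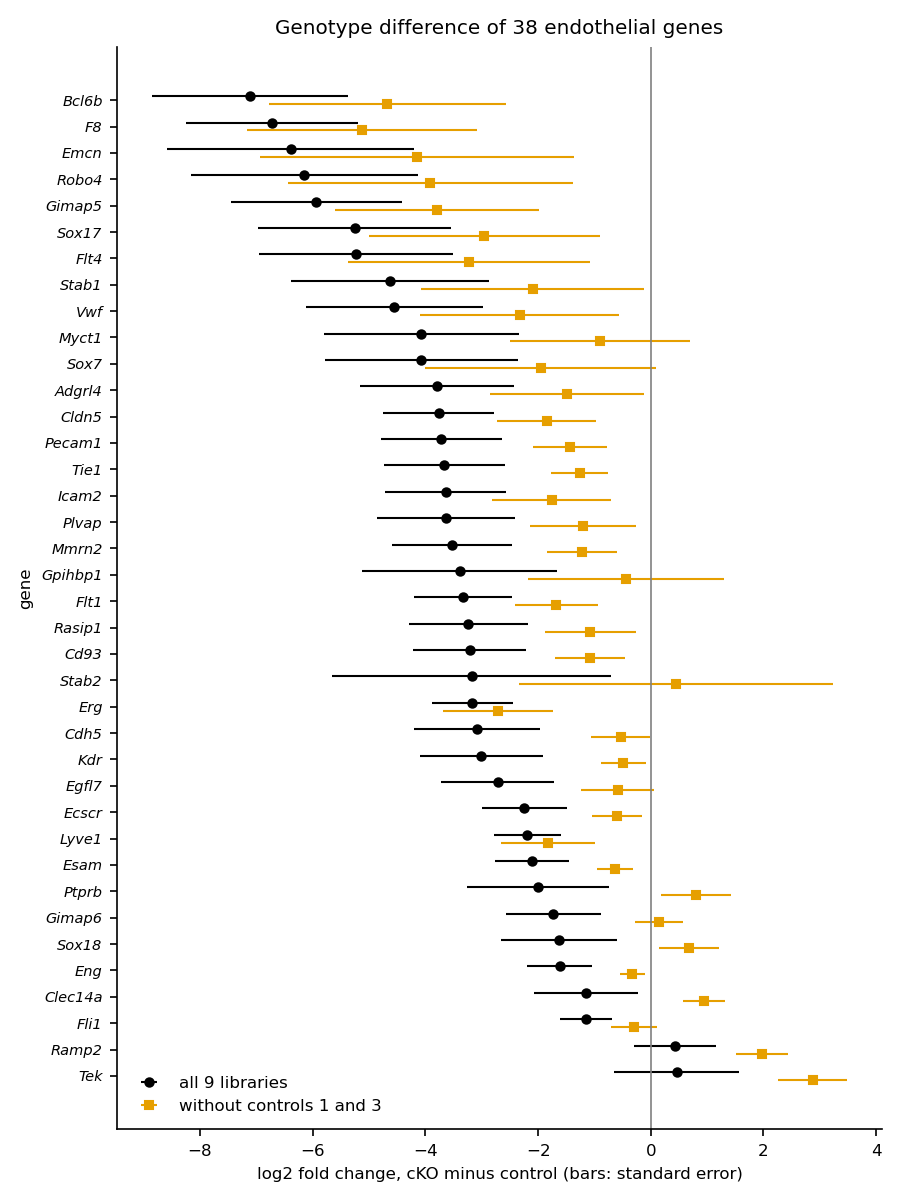
Log2 fold change (cKO minus control, horizontal axis) of each of the 38 genes with its standard error, from all 9 libraries (black circles) and without control replicates 1 and 3 (orange squares). Without those libraries most values move toward 0, Erg moves little, from -3.17 to -2.71, and Tek and Ramp2 lie highest, at 2.87 and 1.98.

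Among junction and surface genes, all 7 had a fitted change below 0 and Cldn5 passed. Pecam1 (CD31, an adhesion molecule at endothelial contacts) had 38993, 1242, 47308 and 2627 in controls and 619.8, 627, 233, 919.8 and 1589 in cKO libraries, listed from replicate 1 upward here and for the genes after it. Only cKO replicate 5 reached the range of the controls. Controls averaged 22542 ± 24044 (SD, n = 4) and cKO libraries 798 ± 505 (SD, n = 5), with a log2 fold change of -3.72 (SE 1.07, limma adjusted p = 0.0612). Cdh5 (VE-cadherin, the main adherens junction cadherin of endothelium) had 7249, 181, 7265 and 249 in controls and 234, 113, 144, 96.8 and 181 in cKO libraries. The cKO values overlapped those of control replicates 2 and 4 (log2 fold change -3.08, SE 1.12, limma adjusted p = 0.112; without control replicates 1 and 3, -0.53). Cldn5, a tight junction claudin, had 1723, 168, 2095 and 103 in controls and 13.2, 44.4, 27.1, 37.6 and 97.9 in cKO libraries. No cKO library reached the lowest control, and Cldn5 was 13.6-fold lower (SE 0.99 on the log2 scale, limma adjusted p = 0.0478). Without control replicates 1 and 3 its log2 fold change was -1.85 and did not pass.

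Plvap, which forms the diaphragms of fenestrated and sinusoidal endothelium, had 82751, 2922, 105431 and 3597 in controls and 4661, 403, 492, 3029.6 and 1961 in cKO libraries. Replicates 1 and 4 of the cKO lay inside the control range. Emcn (endomucin, a sialoglycoprotein of veins, capillaries and type H bone vessels) had 11246, 439, 14172 and 738 in controls and 328, 0, 0, 146 and 694 in cKO libraries. Esam and Icam2, adhesion molecules of endothelial contacts, differed by -2.11 and -3.64 on the log2 scale (limma adjusted p = 0.0775 and 0.0655). In none of these 4 genes did the genotype difference pass.

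The VEGF receptors followed the same division. Kdr (VEGFR2, the main signalling receptor for VEGF-A) had 14009.5, 459, 17585 and 492 in controls and 358, 315, 546, 216 and 336 in cKO libraries. Replicate 3 of the cKO exceeded control replicates 2 and 4 (log2 fold change -3.01, limma adjusted p = 0.112; -0.49 without control replicates 1 and 3). Flt1 (VEGFR1, which binds VEGF-A and placental growth factor) had 7719, 632, 10035 and 1211 in controls and 510.1, 73.4, 280.0, 352 and 411 in cKO libraries. Every cKO library lay below every control, and Flt1 was 10.1-fold lower (SE 0.87 on the log2 scale, limma adjusted p = 0.0468). Flt4 (VEGFR3, the receptor of lymphatic endothelium and angiogenic sprouts) had 2594, 208, 3312 and 154 in controls and 1.47, 96.9, 0, 43.4 and 249 in cKO libraries, and did not pass (limma adjusted p = 0.0872).

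The sister receptors Tie1 and Tek parted. Tie1, an orphan-like receptor that modulates TIE2 signalling, had 21045, 1240.1, 28590.3 and 623 in controls and 548, 446, 171, 364 and 431 in cKO libraries. Every cKO library was below the lowest control (log2 fold change -3.66, SE 1.07, limma adjusted p = 0.0634). Tek (TIE2, the receptor for angiopoietins) had 9790.0, 320.0, 16319.8 and 609 in controls and 5119, 2457, 5191, 4809 and 1145 in cKO libraries. All 5 cKO libraries exceeded control replicates 2 and 4 and lay below control replicates 1 and 3. The log2 fold change over all libraries was 0.46 (SE 1.11, limma adjusted p = 0.824), although the control mean was 1.81 times the cKO mean. Its sign turned with edgeR (-0.87), with DESeq2 (-0.85) and between cKO replicate 5 and the controls (-1.05). Without control replicates 1 and 3 it was 2.87 (SE 0.61), a limma adjusted p of 0.0578 that did not pass, where 1.77% of all genes were called higher. Ptprb (VE-PTP), the phosphatase that acts on TIE2 and VE-cadherin, had 13885, 199, 14655 and 422 in controls and 492, 860.1, 187, 564 and 751 in cKO libraries (limma adjusted p = 0.336).

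Ramp2, which converts the calcitonin receptor-like receptor into an adrenomedullin receptor, was like Tek. It had 9889, 1362, 10754 and 1065 in controls and 7043, 3582, 6807, 6374 and 2184 in cKO libraries. All 5 cKO libraries were above control replicates 2 and 4, with a log2 fold change of 0.43 (SE 0.73, limma adjusted p = 0.74; -0.17 with edgeR, -0.15 with DESeq2 and -0.69 between cKO replicate 5 and the controls) over all libraries and 1.98 (SE 0.46, limma adjusted p = 0.0746) without control replicates 1 and 3. A share of 33.4% of its exon sequence overlaps Vps25 in the GENCODE annotation, so part of its counts may belong to that gene. Clec14a, a C-type lectin of angiogenic endothelium, was the only other member with cKO replicates 1 to 4 all above control replicates 2 and 4, an order found for 23.5% of all genes. It had 11468, 466, 11966 and 875 in controls and 1446, 1275, 1667, 1219.7 and 751 in cKO libraries (limma adjusted p = 0.451). Lepr, given above, was likewise highest in control replicates 1 and 3, and was lowest in control replicate 4 and cKO replicate 5. Whether Lepr-expressing cells account for these levels was not tested. In cKO libraries 2, 3 and 4 Ramp2 was the highest of the 38 genes per kilobase of exon, at 1085, 2062 and 1931 normalized counts per kilobase.

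**Figure D4:**
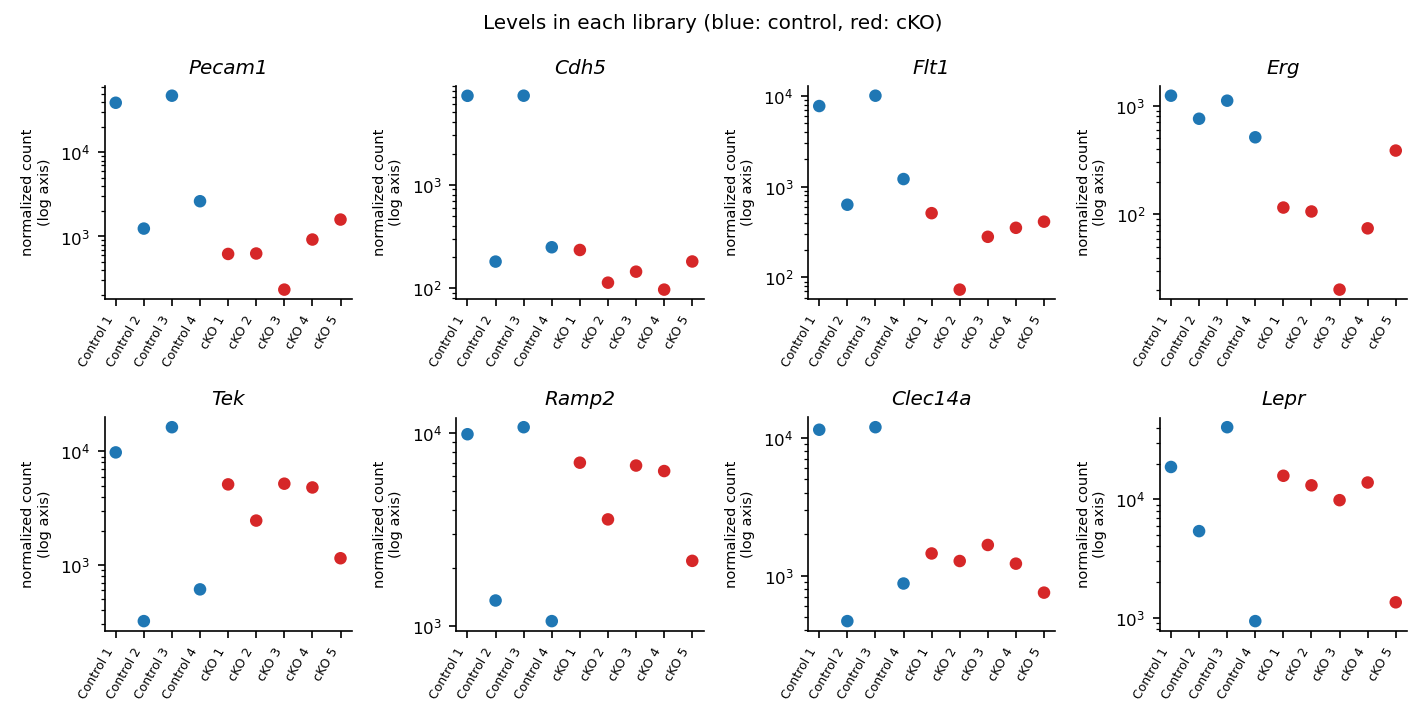
Normalized count (log axis) in each of the 9 libraries for Pecam1, Cdh5, Flt1, Erg, Tek, Ramp2 and Clec14a and, for reference, Lepr (blue control, red cKO). Erg separates the genotypes with less spread among controls than the other genes shown, while Tek and Ramp2 in every cKO library lie between the low and the high controls.

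Of the remaining receptors, Eng (endoglin, a co-receptor for BMP9 and TGF-beta also made by stromal cells and macrophages) had 18375, 3229, 26131 and 4184 in controls and 2946, 2689, 2219.9, 3669.8 and 3302 in cKO libraries. Its cKO values had an SD of 0.28 on the log2 scale, the smallest of the list, and the change did not pass (log2 fold change -1.62, limma adjusted p = 0.104; -0.33 without control replicates 1 and 3). Robo4, a guidance receptor that stabilizes vessels, and Adgrl4, an adhesion G protein-coupled receptor, differed by -6.15 and -3.80 (limma adjusted p = 0.0858 and 0.111). Robo4 had no read in cKO replicates 2 and 3.

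Erg had the smallest p of the list. In cKO replicates 1 to 5 it had 116, 106, 20.3, 74.4 and 386, all below the lowest control of 511. Controls averaged 903 ± 330.0 (SD, n = 4) and cKO libraries 141 ± 142 (SD, n = 5), an 8.98-fold lower level (log2 fold change -3.17, SE 0.71, limma adjusted p = 0.0295). Without control replicates 1 and 3 the log2 fold change was -2.71 and the limma adjusted p 0.186, and between cKO replicate 5 and the controls it was -1.14 (limma adjusted p = 0.622). The edgeR adjusted p was 0.0574 and that of DESeq2 0.00147. Fli1, the other ETS factor, had 654, 1467, 565, 886 and 639 in cKO libraries and did not pass (log2 fold change -1.15, limma adjusted p = 0.141). Replicate 2 of the cKO, with the highest Fli1 of its group, also had the largest share of macrophage and monocyte genes, 0.240%. The part of those cells in the level of Fli1 was not tested.

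Bcl6b, a transcriptional repressor found in endothelium, had 1604, 44.1, 2252 and 92.2 in controls, 105 in cKO replicate 1 and no read in cKO replicates 2 to 5. F8 (coagulation factor VIII, made by endothelium) had 829.6, 84.1, 734 and 85.2 in controls, 88.3 in cKO replicate 1 and no read in the other 4. In both genes cKO replicate 1 lay above control replicates 2 and 4. A count of 0 allows up to 3 reads, which is 2.02 to 4.19 normalized counts depending on the library. The log2 fold changes were -7.11 (SE 1.74, limma adjusted p = 0.0395) and -6.72 (SE 1.52, limma adjusted p = 0.0301), and both depend on how values of 0 are treated. Without control replicates 1 and 3 they were -4.68 and -5.12 and did not pass.

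The SOXF factors Sox7, Sox17 and Sox18, which act together in vessel and lymphatic development, did not pass (limma adjusted p = 0.157, 0.0851 and 0.341). Sox17, which marks arterial endothelium, had 1828, 63.5, 2068 and 97.8 in controls and 29.4, 32.3, 0, 0 and 114 in cKO libraries. Sox18 had 8044, 295, 7709.9 and 349 in controls and 715, 269.9, 452, 1066 and 383 in cKO libraries, of which all but replicate 2 exceeded control replicates 2 and 4. Sox7 had 3922, 209.7, 5222 and 277 in controls and 128, 0, 345, 142 and 145 in cKO libraries. The 3 genes thus differed in how the cKO libraries stood to the low controls, and 16.8% of Sox17 exon sequence overlaps another annotated gene.

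The clearance receptors Stab1, Stab2 and Lyve1 differed in how far control replicates 1 and 3 stood out. Stab1, also made by macrophages, had 4564, 110.4, 6825 and 246 in controls and 199, 45.1, 38.6, 0 and 241 in cKO libraries. Stab2, which clears hyaluronan in sinusoids, had 443, 0, 1522 and 27.9 in controls and 0, 0, 287, 73.7 and 0 in cKO libraries. Stab2 was the only member at 0 in a control, and its level in cKO replicate 3 came near that of control replicate 1. Lyve1 had 89.8, 63.3, 44.8, 18.8 and 135 in cKO libraries, all below the lowest control of 161 (log2 fold change -2.19, SE 0.60, limma adjusted p = 0.0533). Stab1 and Stab2 did not pass (limma adjusted p = 0.124 and 0.44).

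Cd93, Clec14a and Mmrn2 encode partners on the endothelial surface, 2 C-type lectin receptors and the matrix protein multimerin 2 that they bind. Mmrn2 had 15615, 604, 18784 and 788 in controls and 391, 106, 247, 382 and 579 in cKO libraries, all below the lowest control (log2 fold change -3.53, limma adjusted p = 0.0693). Cd93 had 20738, 1007, 20585 and 1121 in controls and 386, 594, 396, 243 and 1459.8 in cKO libraries, where replicate 5 exceeded control replicates 2 and 4 (limma adjusted p = 0.0753). The ligand Mmrn2 and the receptor Cd93 were thus lower than both low controls in cKO replicates 1 to 4, in which Clec14a was higher than both. Egfl7, a secreted vessel protein whose gene hosts miR-126, differed by -2.72 (limma adjusted p = 0.116), and 11.2% of its exon sequence is shared with other annotated genes.

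Vwf (von Willebrand factor, stored in endothelial granules and in platelets) had 26138, 1014, 27829 and 1509 in controls and 971, 542, 5.42, 460.3 and 583 in cKO libraries. Every cKO library was below every control (log2 fold change -4.55, SE 1.57, limma adjusted p = 0.0985). Gpihbp1, which carries lipoprotein lipase onto capillaries, had 1427, 41.4, 2495 and 22.4 in controls and at most 87.3 in cKO libraries (limma adjusted p = 0.237). The platelet marker Pf4 had 219, 164, 90.4 and 115 in control replicates 1 to 4, and Itga2b, the platelet integrin, 1065, 364, 450.0 and 381. Control replicates 1 and 3 were not both far above the others for either.

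Gimap5 and Gimap6, neighbouring GTPase genes expressed in lymphocytes and endothelium, differed from one another. Gimap5 had 1521, 106, 1448 and 53.1 in controls and 2.94, 36.3, 32.5, 0 and 0 in cKO libraries, each below every control (log2 fold change -5.94, SE 1.52, limma adjusted p = 0.0446). Gimap6 had 5309.8, 684, 7434 and 316 in controls and 419.6, 853, 518, 421 and 459 in cKO libraries, all within the control range (limma adjusted p = 0.217). The lymphocyte markers made up 0.00148% to 0.00399% of control libraries, with Cd3g at 0 in all 4, and 0.00100% to 0.0124% of cKO libraries. The highest lymphocyte share was in cKO replicate 2, which also had the highest Gimap6 of its group. The part of lymphocytes in the level of Gimap6 was not tested. Rasip1, a RAS-binding protein needed for vessel lumens, Myct1 and Ecscr, an endothelial chemotaxis regulator, differed by -3.24, -4.07 and -2.24 and did not pass (limma adjusted p = 0.0861, 0.161 and 0.0907). Rasip1 shares 42.9% of its exon sequence with other annotated genes and its counts are uncertain.

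Per kilobase of exon (GENCODE M21), Plvap was the highest of the 38 genes in every control, at 41646, 1470.4, 53061 and 1810.1 normalized counts per kilobase in replicates 1 to 4. Esam ranked second in control replicates 1, 3 and 4 (8276, 8679 and 1517) and Eng in control replicate 2 (798, with Esam at 796). By the mean of the controls the order began with Plvap (24497), Esam (4817), Pecam1 (3619.5) and Eng (3206) and ended with Lyve1 (96.5), Stab2 (56.9) and F8 (43.7). The SD over controls was as large as the mean or nearly so for most genes, so the order is of means with wide spread between libraries. Within libraries Plvap exceeded Esam in 4 of 4 controls, and the order of the other neighbours was not tested. In cKO replicates 1 and 5 Plvap was again first (2346 and 987), and Ramp2 in the others. In cKO replicates 1 to 4 Tek ranked 2 or 3, at 1086, 521, 1102 and 1021, and it was not among the first 4 in any control.

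No library lacked endothelial transcripts altogether. The number of the 38 genes without a read was 0, 1, 0 and 0 in the controls by replicate number and 1, 6, 6, 6 and 4 in the cKO libraries. Below the lowest control lay 20, 29, 29, 24 and 15 of the 38 genes in cKO replicates 1 to 5, and above both control replicates 2 and 4 lay 8, 6, 8, 6 and 10. Replicate 5 of the cKO, the shallowest library, had the fewest of the 38 genes under the control range. No such counts over all genes stand beside these, so they describe the list only.

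Other endothelial genes, a list of 44 written with earlier results of these data known, showed the control division too. Control replicates 1 and 3 were the 2 highest controls for 38 of the 43 tested (88.4%, against 23.6% of all genes). In that list 2 of 43 genes fell and 1 rose, where 2.87% and 4.61% of all genes did, with a median log2 fold change of -1.08, and -0.15 without control replicates 1 and 3. Apln, the ligand of the apelin receptor, had 4197, 1186, 2799 and 1705 in controls and 146, 357, 137, 56.4 and 383 in cKO libraries (12.7-fold lower, limma adjusted p = 0.00817). Gja4 (connexin 37, of arterial endothelium) had 3336, 2043, 3943 and 2774 in controls and 1221, 824, 998, 1262 and 1158 in cKO libraries (2.72-fold lower, limma adjusted p = 0.00565). Both separated the genotypes completely. Without control replicates 1 and 3, however, no gene of that list was called lower (0.366% of all genes were), and 1 was called higher (1.77%). Hey1, a Notch and BMP target, had 666, 193, 685 and 531 in controls and 3128, 3555, 5782, 2686 and 553 in cKO libraries (5.34-fold higher, limma adjusted p = 0.0485), with replicate 5 among the controls.

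Among 8 VEGF and angiopoietin ligands 1 fell, and of 5 tested lymphatic genes 1 rose and 1 fell. Of all genes, 2.87% were called lower and 4.61% higher. Vegfa had 3148, 6711, 5628 and 6792 in controls and 2444, 2048, 2115, 1818 and 4395 in cKO libraries (2.19-fold lower, limma adjusted p = 0.0481). Its lowest control was replicate 1, one of the libraries where its receptors Kdr and Flt1 were high. Of 5 tested lymphatic genes, Prox1, the master regulator of lymphatic identity, had 52.7, 55.2, 137 and 141 in controls and 1541, 2168, 3449.8, 739 and 201 in cKO libraries (12.7-fold higher, limma adjusted p = 0.0223). Foxc2, a factor of lymphatic valves and mesenchyme, fell 3.08-fold (limma adjusted p = 0.0173). Without control replicates 1 and 3 no gene of the ligand list or the lymphatic list passed (0.366% of all genes were called lower and 1.77% higher). The lymphatic chemokine gene Ccl21a was at 0 in all 9 libraries, and Flt4 and Lyve1 were not higher where Prox1 was. Prox1 is also expressed in muscle, and the skeletal muscle list made up 0.000394% to 0.00203% of control libraries and 0.133% to 1.25% of cKO libraries. All 10 genes of that list were called higher in limma over all libraries, where 4.61% of all genes were. Without control replicates 1 and 3 all 10 were again called higher, where 1.77% of all genes were. Those with the smallest p were Myh4, Myh2, Acta1 and Tnnt3 (limma adjusted p = 3.45e-05, 0.000618, 0.000635 and 0.000688). The part of skeletal muscle in the level of Prox1, and in the levels of Tek and Ramp2, was not tested.

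**Figure D5:**
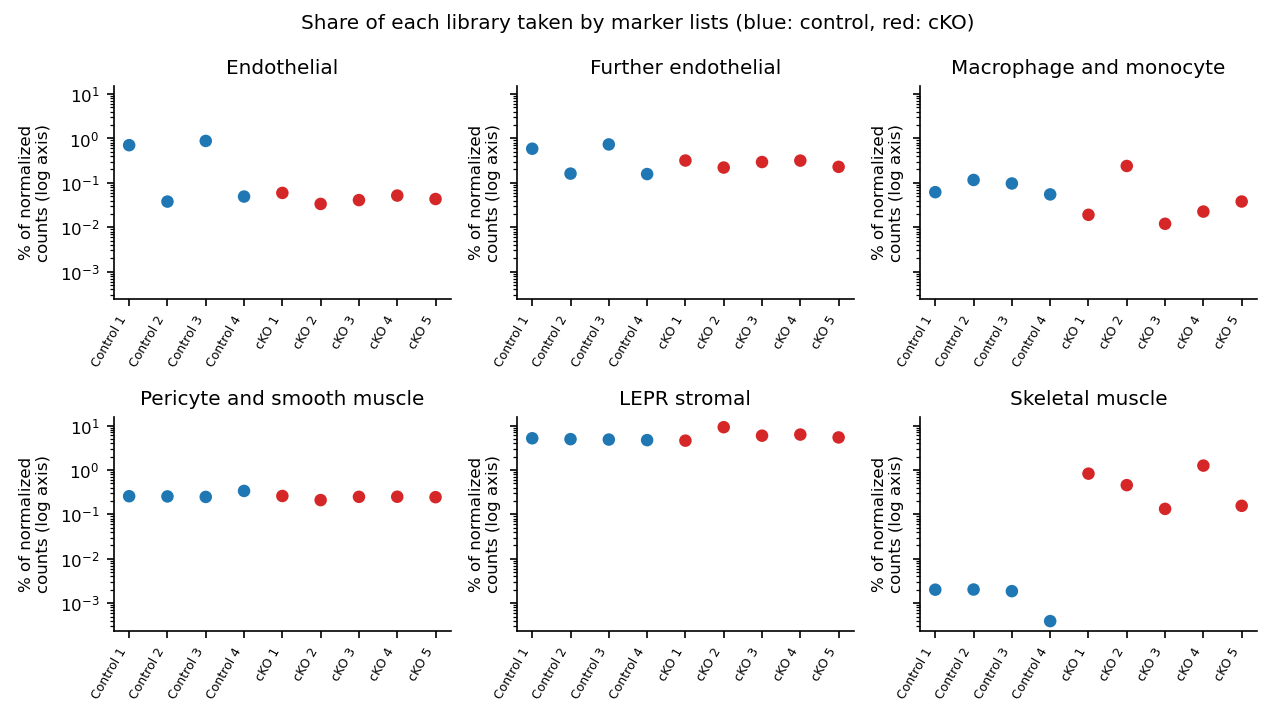
Share of normalized counts (percent, log axis, same scale in all panels) taken by 6 marker lists in each library (blue control, red cKO). The endothelial lists are highest in control replicates 1 and 3, the summed shares of the pericyte and LEPR stromal lists are nearly level among controls, and the skeletal muscle list is at least 0.133% in every cKO library.

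Markers of other cells were read in the same libraries. Pericyte and smooth muscle genes, of cells that wrap vessels, made up 0.256%, 0.254%, 0.247% and 0.337% of control replicates 1 to 4 and 0.210% to 0.260% of cKO libraries. Control replicates 1 and 3 were the highest controls for 1 of their 12 genes, Mcam (12621, 5402, 13701 and 7894), an adhesion molecule that endothelium shares. In that list Des rose 6.82-fold and Mcam and Cspg4 fell 3.05-fold and 2.34-fold (limma adjusted p = 0.0132, 0.0165 and 0.0247). Of all genes, 4.61% were called higher and 2.87% lower. Des had 2840, 4136, 2122 and 6315 in controls and 34977, 25299, 25242, 47142 and 7816 in cKO libraries. The skeletal muscle list was also higher in the cKO libraries, and its part in the level of Des was not tested. LEPR stromal genes made up 4.70% to 5.18% of controls, a sum that hides a difference gene by gene. Control replicates 1 and 3 were highest for 8 of 11 of them (72.7%, against 23.6% of all genes), and the mean log2 level of the list was 14.64 and 15.07 there and 13.90 and 13.32 in control replicates 2 and 4. The part of LEPR stromal cells in the division of the endothelial genes was not tested. Among those 11, Pdgfra rose 2.12-fold (limma adjusted p = 0.0229). The macrophage and monocyte list made up 0.0549% to 0.116% of control libraries, with control replicates 1 and 3 highest for 6 of 16 genes. In cKO replicates 1 to 5 it made up 0.0191%, 0.240%, 0.0120%, 0.0226% and 0.0380%, below every control in all but replicate 2. The fitted change was below 0 for 15 of the 16 (50.3% of all genes). The median log2 fold change was -1.75, and -1.71 without control replicates 1 and 3. The part of macrophages in the levels of the endothelial genes was not tested. Mrc1, shared by macrophages and sinusoidal endothelium, was the only called gene of the macrophage list (limma adjusted p = 0.0211). It had 270.2, 16.6, 416 and 16.8 in controls and at most 1.35 in cKO libraries. Without control replicates 1 and 3 no gene of the pericyte, LEPR stromal or macrophage list passed (0.366% of all genes were called lower and 1.77% higher). None of 6 tested megakaryocyte and platelet genes, 6 erythroid genes or 8 lymphocyte genes passed in limma over all libraries.

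Outside the list, the 10 genes whose log2 levels were closest to the list mean over the 9 libraries, ranked by Pearson correlation, were Ehd4, Depp1, Adcy4, Rtl8a, Igfbp3, Rnf125, Git1, Aplnr, Tppp and Nras. The ranking describes these libraries and rests on control replicates 1 and 3. Aplnr, the apelin receptor, had 34648, 1079, 44318 and 1604 in controls and 82.7 to 974 in cKO libraries. Igfbp3, an insulin-like growth factor binding protein, had 25384, 3537, 25955 and 3695 in controls and 1810.3 to 4696 in cKO libraries. Adcy4, an adenylate cyclase, had 6783, 356, 7559 and 889 in controls and 179 to 627 in cKO libraries.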

How the data were processed

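RNA of 9 sorted-cell libraries was sequenced with paired 150-base reads. The submitters' processing notes list the build mm39 and the tools STAR, featureCounts and DESeq2, without versions. The deposited matrix holds normalized counts, that is read counts which the authors divided by a size factor for each library (unit: signal). Values were whole multiples of 1 step per library for all but 3 values (tolerance 0.01 reads), and the recovered reads were used for edgeR 4.0.16 and DESeq2 1.42.0. The authors' deposited comparison table gives log2 fold changes, standard errors in log2 units, a test statistic (a score) and p-values. No other sample column was present (0 columns), and no row without a gene was found. Symbols were matched for 25275 of 27179 gene IDs, and rows without a symbol held 0.45% to 0.988% of counts.

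Genotypes were compared with limma 3.58.1 (R 4.3.3, trended empirical Bayes, two-sided) on log2(normalized count + 1), over the 15832 genes with at least 10 normalized counts in at least 4 libraries, and p-values were adjusted by Benjamini-Hochberg over all of them at a threshold of 0.05. All 38 endothelial genes passed that filter. The procedure was tested on simulated counts with the same dispersion for every gene and equal means within each group. That test does not cover controls divided as these were. Any pair of libraries differed by far more than counting noise, so none was counted as a duplicate. Exon lengths came from GENCODE M21, which is on the earlier build GRCm38, and promoter windows from RefSeq. Intervals and floors (3 reads for a count of 0) cover counting error only.

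Values in every library are given for genes past the test and for defining or functional genes fixed by name. From the other marker lists, up to 4 genes past the test are named each way, taken by p, and where no gene passed the 2 with the lowest p are eligible. The 10 most alike genes had a mean of at least 50 normalized counts. The genes and lists were chosen with earlier results of these data known. Alternatives covered the pseudocount, filter, scaling, test, library weights, replicate block, depth, Xist and left-out libraries.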

Additional observations from a re-analysis of the deposited data

Results flagged for a closer look

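Among the 76 groups of values (38 genes in 2 groups), 8 held a library far from the rest of its group by Dixon's test at the 95% level, and chance gives about 1 in 20. All 8 were in cKO libraries. The test sets the gap of an extreme value against the range, so it can hardly flag a group divided 2 against 2. The controls were divided in that way for 35 of the 38 genes, by a gap of at least 4-fold. The absence of flags in controls therefore says little about their spread. Erg stood high in cKO replicate 5 at 386, with the next library at 116. Cd93 was 1459.8 and Sox17 114 in the same library, with the next at 594 and 32.3. Bcl6b was 105 and F8 88.3 in cKO replicate 1, with the other 4 libraries at 0. Stab2 was high at 287 in cKO replicate 3, with the next at 73.7, and Egfl7 was low there at 108, with the next at 426. Gimap6 was 853 in cKO replicate 2, with the next at 518.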

How the results depend on the processing

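The number of the 38 genes called lower, 6, was 5 and 7 with pseudocounts of 0.5 and 5, 6 with a filter of 50, TMM or upper-quartile scaling, and 2 without a filter. It was 11 with edgeR, 30 with DESeq2, 10 with library quality weights and 3 with Xist as a covariate. It was 0 with depth class as a covariate, and without control replicates 1 and 3, where the median log2 fold change was -1.21. Libraries under 60 M reads only gave the same fold changes as depth class, with a median of -2.02. Both set cKO replicate 5 against the controls and are the same comparison. Leaving out 1 library at a time gave 0 to 15 calls, where 0.758% to 10.1% of all genes were called lower. It gave a median SD among controls of 2.44 to 2.66. The Tek log2 fold change of 0.46 turned to -0.87 with edgeR, -0.85 with DESeq2, -1.05 with depth class and with libraries under 60 M, -0.504 without control replicate 2 and -0.195 without control replicate 4, and reached 1.39 without control replicate 3. The Ramp2 log2 fold change of 0.43 turned to -0.17, -0.15, -0.69, -0.0299 and -0.148 in the same order, and reached 0.96 without control replicate 3. Without control replicates 1 and 3, Stab2 was 0.45, Gimap6 0.14, Sox18 0.68, Ptprb 0.81 and Clec14a 0.94. The cause of these shifts was not tested. With the replicate number as a block (replicates 1 to 4) 14 genes were called, and 15 in the same libraries without it. Of all genes, 7.52% and 10.1% were called lower in these fits. The deviations of same-numbered libraries correlated at 0.028, 0.033, -0.033 and 0.048. Only those of control replicates 2 and 4 were highest with their own number. No pairing by number was seen in these levels, which cannot show how the libraries were prepared, and the labels name no pairing. For a gene at 0 up to 3 reads are possible by counting error alone. The most members at 0, 6 in each, were in cKO replicates 2, 3 and 4, which were the deepest libraries.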
